A study of Mus musculus with 9 samples.

Results

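The genes described are 32 that fat cells (adipocytes) use to store, release and make lipid and to signal to other tissues. They were taken by gene name from a table of 54532 genes, and all 32 were found under those names. Expression was measured by RNA sequencing of mouse skin in 9 libraries. The groups, of 3 libraries each, were skin given bleomycin and topical nitrate (nitrate), skin given bleomycin alone (bleomycin), and skin of healthy mice (control). Bleomycin, a drug that cuts DNA, scars mouse skin and so serves as a model of systemic sclerosis. Nitrate can be turned into nitrite and then nitric oxide in tissue. The labels give the genotype of all 9 libraries as WT. The strain, sex, age, doses, times and how many animals the skin came from are not given in the sources used here. Therefore p-values cover only the spread among the libraries, which may in part be technical. The nitrate and bleomycin groups both carry bleomycin, and the design has no skin given nitrate without it.

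Mouse skin holds a layer of white adipocytes under the dermis. These cells take up fatty acids released by lipoprotein lipase, make more from glucose, and keep both as triglyceride in a droplet coated with perilipin and CIDE proteins. Adrenergic signals start lipolysis, in which a chain of lipases releases fatty acids and glycerol, and the nuclear receptor PPARγ with C/EBP factors switches on most of the genes concerned. In fibrotic skin this fat layer is known to thin. Several of the same genes also work in other skin structures, such as PPARγ and the acyltransferases in sebaceous glands and the glucose transporter Slc2a4 in muscle.

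The genes that define adipocytes were present in every library. Adipoq, Plin1, Cidec, Lep and Cfd were above 1 FPKM (fragments scaled to gene length and library size) in all 9 libraries, and none of the 32 genes was at 0 in any. The brown fat gene Ucp1 was at 0 in 7 libraries, with 0.0353 FPKM in bleomycin 2 and 0.106 FPKM in control 3. In a piece of skin, fewer adipocytes and less of these RNAs in each adipocyte cannot be told apart. The reads per library ran between 15804050 and 18352592, and mitochondrially encoded transcripts took 3.81 ± 0.860% of reads for the nitrate group, 3.91 ± 0.222% for bleomycin and 7.48 ± 0.763% for control (SD, n = 3).

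C/EBP factors bind DNA at sites close to TTGCNNAA, and among the members matched to a start site this motif lay before Lep, Plin1, Cidec and Pparg. Stretches of 250 bases that end at the base before an annotated start are printed for Lep, Cidec and Pparg to show where these letters stand. They are RefSeq sequences on GRCm38.p6, written 5′ to 3′ along the gene, with the motif in capitals. Plin1 is not printed, since 127 bases of its stretch lie in an exon of another Plin1 transcript.
Lep: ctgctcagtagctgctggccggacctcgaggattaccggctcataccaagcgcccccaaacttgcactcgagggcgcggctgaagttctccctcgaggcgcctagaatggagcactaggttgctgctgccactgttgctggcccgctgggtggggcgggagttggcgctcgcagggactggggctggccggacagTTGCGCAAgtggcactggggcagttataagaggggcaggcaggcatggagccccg
Cidec: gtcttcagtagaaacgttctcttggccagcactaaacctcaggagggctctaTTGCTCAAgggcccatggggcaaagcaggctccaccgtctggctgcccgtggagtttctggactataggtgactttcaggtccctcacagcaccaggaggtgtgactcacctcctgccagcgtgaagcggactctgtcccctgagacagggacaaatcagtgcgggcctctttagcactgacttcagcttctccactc
Pparg: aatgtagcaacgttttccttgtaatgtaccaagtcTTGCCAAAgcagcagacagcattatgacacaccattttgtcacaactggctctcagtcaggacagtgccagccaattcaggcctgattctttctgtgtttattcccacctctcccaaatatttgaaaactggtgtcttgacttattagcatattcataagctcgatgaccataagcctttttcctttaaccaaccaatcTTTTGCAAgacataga
The Lep stretch is chr6:29059971-29060220 on the plus strand, its motif begins 55 bases before the start, and its last base is the first exon base of Lep in the GENCODE M21 annotation. The Cidec stretch is chr6:113434765-113435014 on the minus strand, before the second of the RefSeq starts and within the Cidec gene. Its motif begins 198 bases before that start. The Pparg stretch is chr6:115421816-115422065 on the plus strand, before the third RefSeq start and within the Pparg gene, and holds the motif 215 bases before the start and, read on the other strand, 16 bases before it. Neither the Cidec nor the Pparg stretch overlaps an annotated exon. No match lay in the 250 bases before the first Cidec start, or before the first or second Pparg start.

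The motif was searched on both strands in 250 bases before each start. It was found in 4 of 23 matched members (17.4%) and in 10.8% of all 27025 genes with a promoter in the table. The DR1 motif, the direct repeat that PPARγ with its partner RXR binds, was in 0 of the 23 members and in 0.400% of all genes. The letters CCAAT were in 7 members (30.4%) and in 37.5% of all genes, and TATAAA in 2 members (8.70%) and in 14.3% of all genes. These are matches of letters in these windows only.

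Most of the 32 genes were lower in bleomycin than in control, few of them beyond the test. Each estimate below is a difference in log2(FPKM + 1), the group named first minus the other, with its standard error after ±, and the adjusted p is the Benjamini-Hochberg value from limma over the 14645 tested genes. In bleomycin against control 7 members fell and none rose, while 8.43% of all tested genes were called in either direction, 3.69% lower and 4.74% higher. The median log2 fold change of the members was -0.96, beside 0.01 for all tested genes, and 30 of 32 estimates were below 0 (48.4% of all tested genes). In 25 members every bleomycin library was below every control library, which held for 17.3% of all tested genes. All 32 members passed the filter on low values, but Plin5 passed it only through its 3 control libraries, where it is high, so the filter favoured its direction. Over the other 31 members 6 fell, 29 estimates were below 0 and the median was -0.96.

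**Figure D1:**
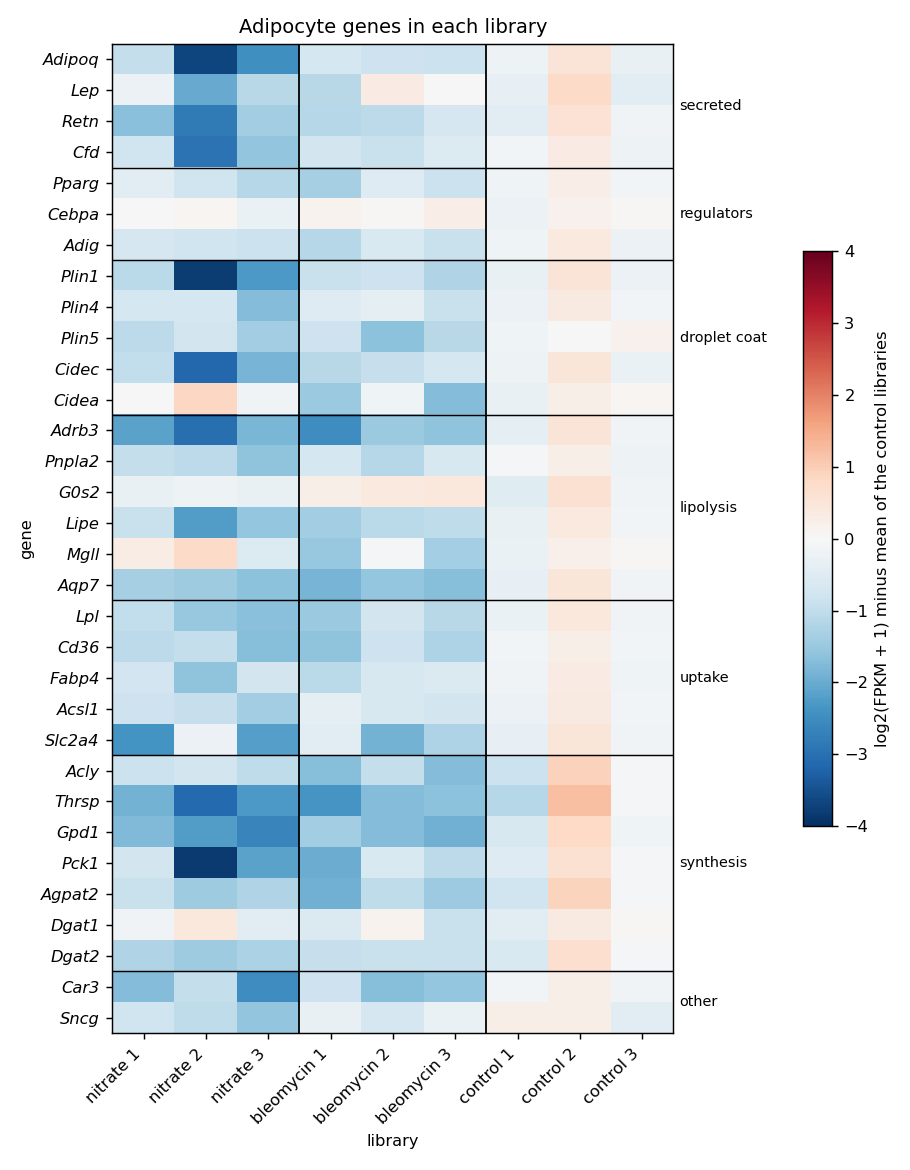
Each row is 1 of the 32 adipocyte genes, grouped by role, and each column 1 library. The colour is log2(FPKM + 1) minus the mean of the 3 control libraries, from -4 (dark blue) to 4 (dark red). Most rows are blue in the nitrate and bleomycin columns, while Cebpa, G0s2, Cidea, Mgll and Dgat1 have pale or red cells there, and control 2 is the highest control in 31 of 32 rows.

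Among the secreted factors, the values were lower after bleomycin but none was called. Adipoq, the gene of the hormone adiponectin, had 69.3, 63.5 and 62.3 FPKM in bleomycin 1, 2 and 3, against 98.8, 162 and 93.1 FPKM in control 1, 2 and 3. The groups did not overlap, and the estimate was -0.81 ± 0.58 (adjusted p = 0.402). Lep, the gene of leptin, had 3.57, 11.4 and 8.76 FPKM in bleomycin, against 6.86, 15.9 and 6.24 FPKM in control (-0.27 ± 0.54, adjusted p = 0.784). These groups overlapped, and the sign turned without bleomycin 1 (0.16) or without control 2 (0.12). Retn, which encodes the hormone resistin, averaged 20.0 ± 3.67 FPKM in bleomycin and 41.2 ± 16.1 FPKM in control (SD, n = 3 each; -0.96 ± 0.39, adjusted p = 0.160). Cfd, the gene of the complement protease adipsin, averaged 613 ± 75.5 FPKM in bleomycin and 1026 ± 221 FPKM in control (-0.73 ± 0.47, adjusted p = 0.356).

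Of the regulators, Adig alone passed the test after bleomycin. Adig, which encodes the small adipocyte protein adipogenin, had 8.48, 12.8 and 10.2 FPKM in bleomycin, against 17.6, 26.6 and 16.8 FPKM in control, with every bleomycin value below every control value (-0.88 ± 0.20, adjusted p = 0.0314). Pparg, the nuclear receptor that drives fat cell formation, had 5.19, 9.73 and 7.53 FPKM in bleomycin, against 12.8, 17.4 and 13.4 FPKM in control. Those groups were apart too, but the estimate of -0.89 ± 0.24 missed the threshold (adjusted p = 0.0560). It was called in 4 of 20 alternatives, with quantile normalization, with sample weights, without nitrate 3 and without bleomycin 2, and its adjusted p ran between 0.0332 and 0.189. Cebpa, the C/EBP factor of mature fat cells, had 155, 148 and 171 FPKM in bleomycin, against 121, 161 and 146 FPKM in control (0.15 ± 0.15, adjusted p = 0.554). Its groups overlapped, and it was 1 of only 2 members with an estimate above 0, the other being G0s2.

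The genes of lipid uptake and of lipolysis held 4 of the 7 falls. Cd36, a fatty acid transporter, had 53.4, 91.0 and 68.3 FPKM in bleomycin, against 151, 191 and 151 FPKM in control (-1.23 ± 0.25, adjusted p = 0.0240). Lpl, the lipoprotein lipase that frees fatty acids from blood lipids, had 36.4, 60.9 and 46.8 FPKM in bleomycin, against 85.2, 138 and 92.5 FPKM in control (-1.11 ± 0.27, adjusted p = 0.0393). Neither gene's groups overlapped. Adrb3, the β3-adrenergic receptor that starts lipolysis, had 1.07, 3.08 and 2.74 FPKM in bleomycin, against 7.77, 15.6 and 9.44 FPKM in control (-1.86 ± 0.38, adjusted p = 0.0242). Its groups were apart, and 24.9% of its exon bases also lie in an exon of a gene on the other strand. Aqp7, the channel through which adipocytes release glycerol, had 0.607, 1.0002 and 0.782 FPKM in bleomycin, against 3.61, 7.02 and 4.23 FPKM in control (-1.69 ± 0.21, adjusted p = 0.00574). The Aqp7 values rest on 28, 49 and 39 reads in bleomycin and 156, 334 and 208 reads in control, and at such low levels the added 1 makes the fold change smaller than a ratio of FPKM. Its groups did not overlap.

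The triglyceride lipases themselves were lower without passing. Pnpla2, which removes the first fatty acid, averaged 56.2 ± 10.2 FPKM in bleomycin and 99.99 ± 16.5 FPKM in control. Lipe, the hormone-sensitive lipase that removes the next, averaged 13.6 ± 1.84 FPKM in bleomycin and 32.2 ± 8.503 FPKM in control. In both genes the groups did not overlap. G0s2, which encodes an inhibitor of the Pnpla2 lipase, averaged 18.1 ± 1.22 FPKM in bleomycin and 14.7 ± 6.45 FPKM in control, and its groups overlapped. Mgll, the lipase of the last step, overlapped as well, with 87.8 ± 53.1 FPKM in bleomycin and 157 ± 26.2 FPKM in control.

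Droplet proteins and the enzymes of lipid synthesis each had 1 called member, Plin5 and Gpd1, and the call of Plin5 rests on the filter as said. Plin5, a droplet protein of tissues that burn fat, had 1.21, 0.249 and 0.815 FPKM in bleomycin, against 2.44, 2.91 and 3.33 FPKM in control (-1.18 ± 0.24, adjusted p = 0.0249). These came from 9 to 41 reads in bleomycin and 78 to 121 reads in control, and did not overlap. With 0.1 added in place of 1, the estimate of Plin5 was -1.99 and the call was lost (adjusted p = 0.0518), as was that of Adrb3 (-2.27, adjusted p = 0.0569). The estimates of Plin5 over the alternatives reached -2.19. The adjusted p over them ran between 0.0119 and 0.0905 for Plin5 and between 0.0117 and 0.0962 for Adrb3. Gpd1, which makes the glycerol backbone of triglyceride, had 44.9, 34.7 and 30.7 FPKM in bleomycin, against 75.6, 207 and 106 FPKM in control (-1.68 ± 0.37, adjusted p = 0.0293). Every bleomycin value was below the lowest control value. Thrsp, a nuclear protein that promotes lipogenesis, had the lowest estimate of the members that did not pass (-1.91 ± 0.55, adjusted p = 0.0707), with 15.2, 23.6 and 25.4 FPKM in bleomycin, against 36.003, 186 and 79.1 FPKM in control. The groups did not overlap, and control 2 was far above the other controls. The droplet coat genes Plin1 and Cidec averaged 27.4 ± 3.85 and 64.5 ± 9.53 FPKM in bleomycin, against 56.5 ± 18.9 and 125 ± 38.4 FPKM in control, and neither was called. Plin4, another perilipin of white fat, averaged 17.4 ± 6.55 FPKM in nitrate, 23.1 ± 4.08 FPKM in bleomycin and 35.6 ± 8.49 FPKM in control. Agpat2, an acyltransferase on the way to triglyceride, averaged 24.9 ± 4.82 FPKM in nitrate, 20.8 ± 6.78 FPKM in bleomycin and 64.3 ± 38.3 FPKM in control. Acly, which supplies acetyl-CoA for lipid synthesis, averaged 71.4 ± 7.19 FPKM in nitrate, 49.0 ± 16.5 FPKM in bleomycin and 149.6 ± 91.1 FPKM in control. These 3 genes passed in no comparison, although both treated groups were below every control value for Plin4 and Agpat2.

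**Figure D2:**
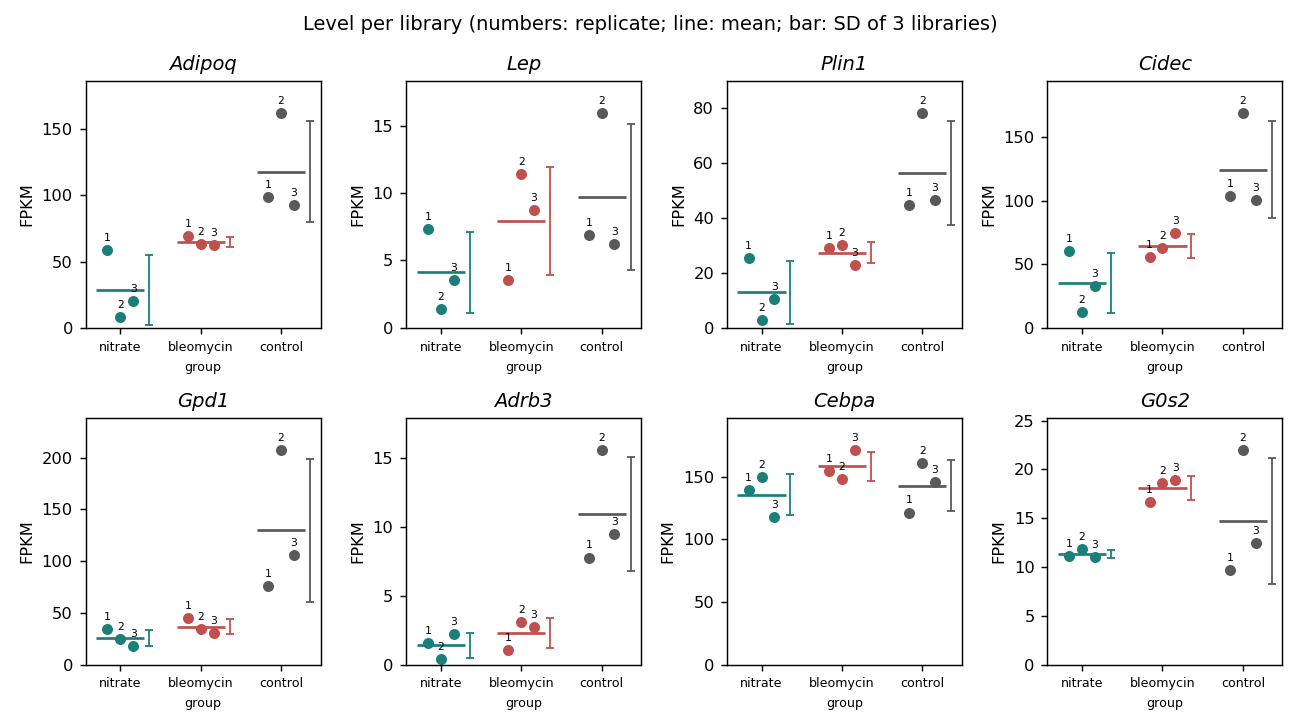
FPKM of 8 members in each library, with the replicate number beside each point, the group mean as a line and the SD of 3 libraries as a bar. The control libraries of Adipoq, Plin1, Cidec, Gpd1 and Adrb3 all lie above the bleomycin and nitrate libraries, nitrate 2 has the lowest point for Adipoq, Lep, Plin1, Cidec and Adrb3, and Cebpa overlaps in all groups.

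How many members passed depended on single libraries. Against 7 with all libraries, 1 was called without control 2 or without bleomycin 3, and 2 were called without control 3 or without bleomycin 1. With control 1 and bleomycin 1 both left out, which had the least hair follicle RNA, 1 was called. Aqp7 was the gene left each time, and its call held in all 19 alternatives in which it was tested, with adjusted p between 0.00334 and 0.0387. The other called members kept theirs in 10 (Plin5) to 13 (Cd36, Gpd1 and Adig) alternatives. Control 2 was the highest control library for 31 of the 32 genes, and the highest of all 9 libraries for 27. The shares of all tested genes with these ranks are not given here.

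In nitrate against control more of the 32 genes passed the test in the fit of all 9 libraries, at least 1 in each role. That order turned when only the compared groups were fitted, with 2 members called in nitrate and 10 in bleomycin against control. It also turned without nitrate 3 (2 and 10), without control 1 (4 and 7), and without both control 1 and bleomycin 1 (0 and 1). In most other alternatives more were called in nitrate. The comparison shares the control libraries with the one above, so the counts are not independent of each other. With all 9 libraries 19 of 32 members fell and none rose, beside 8.53% of all tested genes called, 4.9% lower and 3.63% higher. The median log2 fold change was -1.23, beside 0.02 for all tested genes, and 30 of 32 estimates were below 0 (48.1% of all tested genes). Without Plin5, 18 of 31 fell. The nitrate libraries were all below the controls for 24 members, against 17.5% of all tested genes. By role, the falls were 2 of 4 secreted factors, 1 of 3 regulators, 3 of 5 droplet proteins, 4 of 6 lipolysis genes, 4 of 5 uptake genes, 3 of 7 synthesis genes, and both Car3 and Sncg.

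Adipoq had 58.6, 8.02 and 19.9 FPKM in nitrate 1, 2 and 3, against the 93.1 to 162 FPKM of control (-2.36 ± 0.58, adjusted p = 0.0435). Retn had 11.6, 4.67 and 14.4 FPKM in nitrate, against 28.4, 59.2 and 35.95 FPKM in control (-1.96 ± 0.39, adjusted p = 0.0271). Both genes were apart from control in every library, with nitrate 2 lowest. Cfd, at 583, 129 and 340 FPKM in nitrate and 928, 1278 and 870 FPKM in control, was also apart but missed the threshold (-1.77 ± 0.47, adjusted p = 0.0534). Lep had 7.33, 1.43 and 3.57 FPKM in nitrate and overlapped with control (-1.13 ± 0.54, adjusted p = 0.190).

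Among the droplet proteins Plin1, Cidec and Plin5 fell. Plin1, the perilipin that guards the droplet of white fat cells, had 25.5, 3.03 and 10.4 FPKM in nitrate, against 44.7, 78.2 and 46.6 FPKM in control (-2.38 ± 0.58, adjusted p = 0.0433). Cidec, which fuses droplets into a single large one, had 60.2, 12.7 and 32.9 FPKM in nitrate, against 104, 169 and 101 FPKM in control (-1.999 ± 0.48, adjusted p = 0.0409). All nitrate values of both genes were below control, nitrate 2 by most. Plin5 averaged 0.891 ± 0.415 FPKM in nitrate and 2.90 ± 0.445 FPKM in control (-1.06 ± 0.24, adjusted p = 0.0380), in the direction that the filter favoured. With 0.1 added in place of 1, the calls of Plin5 (adjusted p = 0.0753) and Plin1 (adjusted p = 0.0508) were lost. Cidea, a CIDE protein of brown fat that mouse sebaceous glands also make, had 43.2, 78.6 and 39.6 FPKM in nitrate, against 35.6, 51.9 and 46.2 FPKM in control, and overlapped (0.22 ± 0.42, adjusted p = 0.746).

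Lipolysis genes fell at the receptor, at both main lipases and at the glycerol channel. Adrb3 had 1.58, 0.420 and 2.23 FPKM in nitrate, all below its lowest control value of 7.77 FPKM (-2.33 ± 0.38, adjusted p = 0.0176). Aqp7 had 1.29, 1.14 and 0.836 FPKM in nitrate, also all below control (-1.48 ± 0.21, adjusted p = 0.0139). Pnpla2 averaged 43.2 ± 10.2 FPKM in nitrate (-1.21 ± 0.22, adjusted p = 0.0226) and Lipe 10.9 ± 5.45 FPKM (-1.55 ± 0.32, adjusted p = 0.0309), beside the control means given above. G0s2 and Mgll, with estimates of -0.27 and 0.17, did not pass.

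Among uptake genes Lpl, Cd36, Fabp4 and Acsl1 fell, and among synthesis genes Gpd1, Thrsp and Dgat2. Lpl averaged 39.6 ± 10.7 FPKM in nitrate (-1.39 ± 0.27, adjusted p = 0.0256) and Cd36 70.2 ± 18.4 FPKM (-1.24 ± 0.25, adjusted p = 0.0286). Fabp4, the carrier of fatty acids in adipocytes, averaged 53.9 ± 16.8 FPKM in nitrate and 109.6 ± 21.8 FPKM in control (-1.04 ± 0.27, adjusted p = 0.0483), and Acsl1, which activates fatty acids, 16.2 ± 3.37 FPKM in nitrate and 34.4 ± 7.98 FPKM in control (-1.04 ± 0.20, adjusted p = 0.0265). Gpd1 had 34.2, 24.6 and 18.3 FPKM in nitrate, all below its control values (-2.21 ± 0.37, adjusted p = 0.0176). Thrsp had 21.1, 8.43 and 15.7 FPKM in nitrate (-2.44 ± 0.55, adjusted p = 0.0367), which was the lowest estimate of all 32 genes. Dgat2, the acyltransferase that completes triglyceride, fell with 69.0, 59.6 and 66.1 FPKM in nitrate, against 104, 253 and 154 FPKM in control (-1.29 ± 0.27, adjusted p = 0.0316), while its counterpart Dgat1 averaged 26.5 ± 8.46 FPKM in nitrate and 27.3 ± 7.38 FPKM in control and did not pass. The difference between Dgat1 and Dgat2 was not tested.

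Of the remaining members, Adig fell with 11.2 ± 0.850 FPKM in nitrate and 20.3 ± 5.44 FPKM in control (-0.77 ± 0.20, adjusted p = 0.0478). Car3, a carbonic anhydrase abundant in fat and muscle, averaged 351 ± 180 FPKM in nitrate and 1069 ± 159 FPKM in control (-1.72 ± 0.38, adjusted p = 0.0345). Sncg, a synuclein that mouse adipocytes make, averaged 12.6 ± 3.54 FPKM in nitrate and 28.5 ± 7.16 FPKM in control (-1.12 ± 0.25, adjusted p = 0.0353). Pparg averaged 8.06 ± 2.11 FPKM in nitrate and 14.5 ± 2.53 FPKM in control (-0.79 ± 0.24, adjusted p = 0.0719), and Cebpa 136 ± 16.4 FPKM in nitrate and 143 ± 20.1 FPKM in control (-0.07 ± 0.15, adjusted p = 0.769), so neither passed. Pck1, an enzyme of an earlier step on the way to glycerol phosphate in fat cells, had the lowest estimate among those not called (-2.22 ± 0.72, adjusted p = 0.0826).

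**Figure D3:**
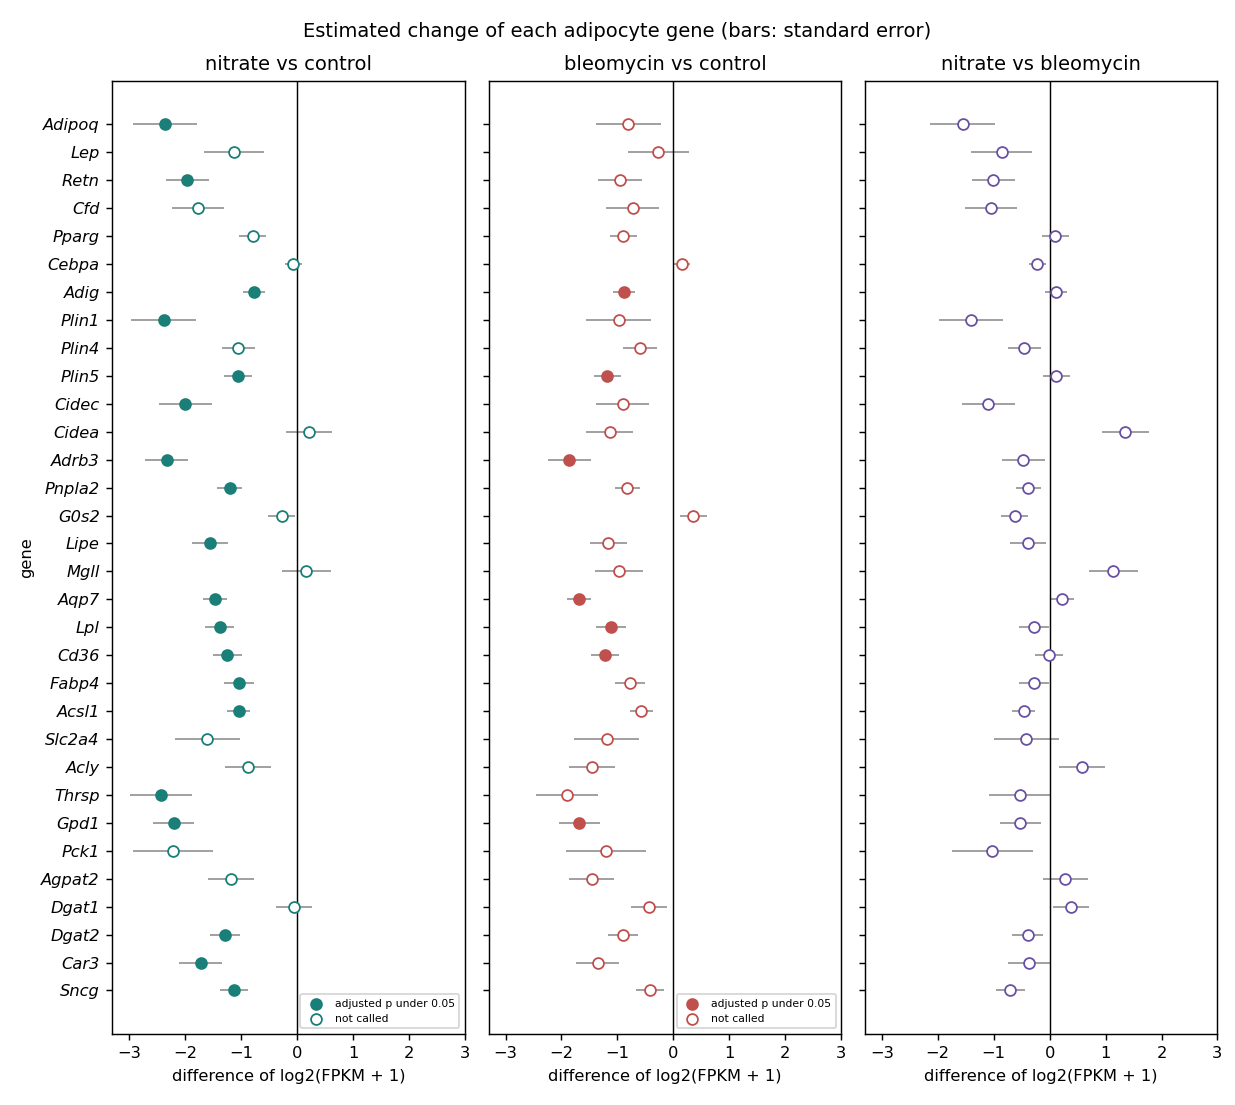
Difference of log2(FPKM + 1) with its standard error for each of the 32 genes in the 3 comparisons, with filled points at an adjusted p under 0.05. Of the nitrate points against control 19 are filled, of the bleomycin points against control 7, and of the nitrate points against bleomycin none; Cidea and Mgll lie farthest to the right in the last.

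These calls too rested on few libraries. Against 19 with all libraries, 1 member was called without control 2, 4 without control 1, 7 without control 3, 2 without nitrate 3, and 8 without bleomycin 3, which enters through the shared estimate of the spread. With control 1 and bleomycin 1 both left out none was called, while the limma count of all genes was then 23. Leaving out nitrate 1 moved Adipoq to -3.07 and Plin1 to -3.04, and leaving out nitrate 2 moved them to -1.71 and -1.68, with Cidec at -1.42. Thrsp stood at -1.84 without control 2 and at -3.01 without control 1. The call held in 7 of 20 alternatives for Plin1 and Adig, 8 of 20 for Adipoq and Fabp4, and 9 of 20 for Cidec. For Plin5 it held in 8 of 19, for Adrb3 in 16 of 19 and for Aqp7 in 18 of 19. The remaining called members kept theirs in 10 (Thrsp) to 16 (Gpd1) of 20.

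Between nitrate and bleomycin no member passed the test, and neither did any other gene (0% of 14645 genes by limma, with 17.9% at an unadjusted p under 0.05). At an unadjusted p under 0.05, 6 members were lower and 2 were higher. The median log2 fold change was -0.39, beside -0.00 for all tested genes, and 23 of 32 estimates were below 0 (50.4% of all tested genes). In Adipoq, Retn, G0s2, Acsl1, Dgat2 and Sncg every nitrate library was below every bleomycin library, which is 6 of 32 members and 11.8% of all tested genes. Cidea was the one member with every nitrate library above bleomycin, which held for 9.4% of all tested genes. A p that misses the threshold does not show that the groups were alike.

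The lowest estimate was that of Adipoq, with 58.6, 8.02 and 19.9 FPKM in nitrate, against 69.3, 63.5 and 62.3 FPKM in bleomycin (-1.56 ± 0.58, adjusted p = 0.212). The highest was Cidea, with 43.2, 78.6 and 39.6 FPKM in nitrate, against 15.0, 38.6 and 12.5 FPKM in bleomycin (1.35 ± 0.42, adjusted p = 0.160). Adipoq was tightly grouped in bleomycin and spread widely in nitrate, while Cidea varied in both. Without nitrate 2 the estimate of Adipoq was -0.90, and without nitrate 1 it was -2.26. Of the other secreted factors Retn had an estimate of -1.01 ± 0.39 (adjusted p = 0.228), Cfd of -1.05 ± 0.47 (adjusted p = 0.288) and Lep of -0.86 ± 0.54 (adjusted p = 0.442). Without nitrate 2 these were -0.57 for Retn, -0.45 for Cfd and -0.41 for Lep, while over single libraries left out they reached -1.29, -1.54 and -1.30. Pparg, at 0.10 ± 0.24 (adjusted p = 0.859), and Cebpa, at -0.22 ± 0.15 (adjusted p = 0.476), were nearer to 0. G0s2, the lipase inhibitor, varied little within either group, with 11.1, 11.8 and 11.0 FPKM in nitrate, against 16.7, 18.6 and 18.9 FPKM in bleomycin.

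Nitrate 2 stood apart from nitrate 1 and 3 for some members, and no other library was set beside its group in this way. Nitrate 2 was the lowest nitrate library for 13 of 32 members, while nitrate 3 was the lowest for 18, with no share of all tested genes given for these ranks. For Pck1 nitrate 2 had 0.3502 FPKM, from 22 reads, which was 0.0504 of the mean of nitrate 1 and nitrate 3. The ratio was 0.169 for Plin1, 0.204 for Adipoq, 0.221 for Adrb3, 0.263 for Lep, 0.273 for Cidec, 0.279 for Cfd and 0.358 for Retn. In all, 10 of 32 members were below 0.5 of that mean, beside 6.65% of all tested genes. At the other end Slc2a4, the insulin-responsive glucose transporter of fat and muscle, had 37.2 FPKM in nitrate 2 against 7.71 and 8.88 FPKM in nitrate 1 and 3, a ratio of 4.48. Car3 followed at 2.15, Plin5 at 1.91, Cidea at 1.90, Mgll at 1.77 and Dgat1 at 1.64. These 6 of 32 members (18.75%) were above 1.5 times the mean of nitrate 1 and nitrate 3, beside 13.3% of all tested genes. The median ratio was 0.976 over the members and 0.979 over all tested genes, so the library was not low throughout.

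**Figure D4:**
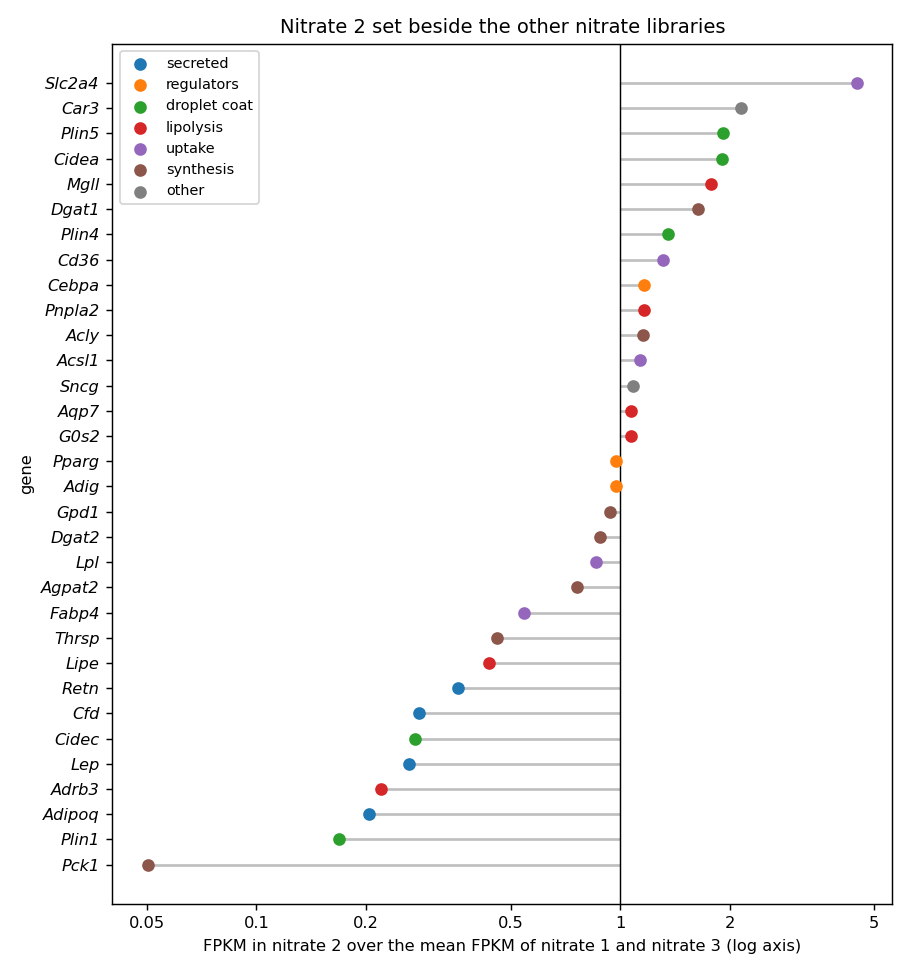
For each member, FPKM in nitrate 2 over the mean of nitrate 1 and nitrate 3, on a log axis, coloured by role. Pck1 lies lowest at 0.0504, the secreted factors lie between 0.204 and 0.358, and Slc2a4 is highest at 4.48.

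Skeletal muscle genes moved beside some of these members. The summed FPKM of 16 muscle genes was 3447 in nitrate 1, 12455 in nitrate 2 and 2698 in nitrate 3. It was 15203 in bleomycin 1, 3434 in bleomycin 2 and 7847 in bleomycin 3, and ran between 16200 in control 3 and 24144 in control 2. Slc2a4 had 32.4, 11.3 and 18.1 FPKM in bleomycin and 34.8, 61.8 and 40.2 FPKM in control, so it was highest in the same library of each group as the muscle sum. All 15 tested muscle genes had estimates below 0 against control, with a median of -1.31 in bleomycin and -1.93 in nitrate. Of these 15 none was called in bleomycin against control (lowest adjusted p = 0.0549). In nitrate against control 4 fell, among them Myh4, a myosin of fast fibres (-4.23 ± 0.70, adjusted p = 0.0176). The 4 became 13 without nitrate 2, 0 without nitrate 3, control 1 or control 2, and 1 without nitrate 1, bleomycin 3 or control 3. The part of muscle in the values of Slc2a4, Car3 and Plin5 was not tested.

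Sebaceous gland genes, whose cells also make lipid, took another course. The summed FPKM of 12 of them was 1196, 1608 and 903 in nitrate, 487, 1097 and 478 in bleomycin, and 739, 1176 and 1112 in control, and all 12 were detected in each nitrate and control library. In bleomycin against control 2 of 11 tested genes fell, led by Scd3 (-3.31 ± 0.54, adjusted p = 0.0118), a desaturase of these glands. In nitrate against control 1 rose, the keratin gene Krt79 (1.57 ± 0.31, adjusted p = 0.0263), and in nitrate against bleomycin none was called, with a median of 0.97. Without control 2 no sebaceous gland gene was called against control, the rise in nitrate was also lost without nitrate 1, nitrate 3 or control 1, and in bleomycin 1 fell without bleomycin 1, bleomycin 3, control 1 or control 3, and 4 without bleomycin 2. Cidea and Mgll were likewise highest in nitrate 2, and within bleomycin highest in bleomycin 2. The part of these glands in Cidea, Mgll, Dgat1 and the synthesis genes was not tested.

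Genes of the growing (anagen) hair follicle, of endothelium and of macrophages were also compared between groups. The summed FPKM of 18 hair follicle genes was 2326 to 15328 in nitrate, 51.4 to 4868 in bleomycin and 3.50 to 2871 in control, where 9 of the 18 were at 0 in control 1. None was called in any comparison, although all 18 estimates were above 0 in each. Their median was 1.13 in bleomycin against control, 3.10 in nitrate against bleomycin and 4.40 in nitrate against control. In bleomycin against control that median ran between -0.47 and 3.23 with 1 library left out. The sum of 12 endothelial genes was 101 to 194 in nitrate, 143 to 162 in bleomycin and 259 to 291 in control. All 12 estimates were below 0 against control, with a median of -1.02 in nitrate and -0.75 in bleomycin. Of the 12, 7 fell in nitrate and 5 in bleomycin against control. With 1 library left out the calls were 0 (without control 1 or control 2) to 12 (without nitrate 2) in nitrate, and 1 (without control 2) to 7 in bleomycin. They were 3 in nitrate without nitrate 1, nitrate 3 or control 3. In bleomycin they were 2 without bleomycin 1, bleomycin 3, control 1 or control 3, and 3 without bleomycin 2. The sum of 12 macrophage genes was 339.7 to 895 in nitrate, 1093 to 2021 in bleomycin and 464.5 to 695 in control. In bleomycin against control all 12 macrophage estimates were above 0 and Lyz2 and Cd14 rose, a count of 2 that was 0 without any one of the control or bleomycin libraries. The part of these tissues in the adipocyte values was not tested. All 13 mitochondrially encoded genes also had estimates below 0 against control, with a median of -1.18 in bleomycin and -1.26 in nitrate. Of the 13, 7 fell in bleomycin and 9 in nitrate against control. With 1 library left out these calls ran between 5 and 10 in bleomycin and between 0 and 13 in nitrate.

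**Figure D5:**
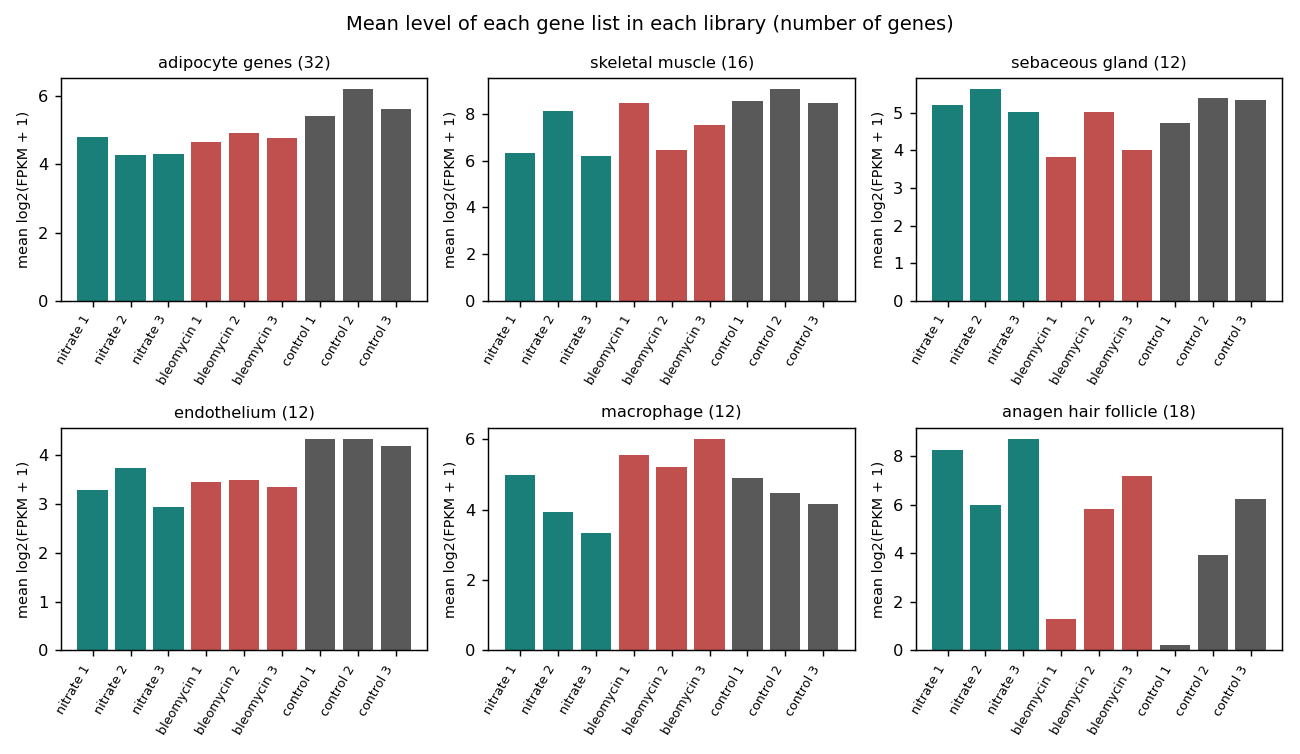
Mean log2(FPKM + 1) of each gene list in each library, with the number of genes in brackets. The adipocyte genes are highest in the 3 control libraries, the muscle genes are high in control, bleomycin 1 and nitrate 2, and the hair follicle genes run between 0.22 in control 1 and 8.73 in nitrate 3.

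Some other genes of fat cells were called against control. Of 36 further adipocyte genes, 6 fell and 1 rose in bleomycin against control, with a median of -0.36. The falls with the smallest p were Cavin2 (-1.24 ± 0.20, adjusted p = 0.0115) and Cav1 (-0.97 ± 0.19, adjusted p = 0.0212), which shape the surface pits called caveolae and are also made by endothelium, and Irs1, which relays the insulin signal (-1.05 ± 0.19, adjusted p = 0.0164). The rise was Fabp5, a fatty acid carrier that keratinocytes make in quantity (1.54 ± 0.31, adjusted p = 0.0220). In nitrate against control 8 of the 36 fell and none rose, with a median of -0.80, led by Cavin2, Cav1, Pcx and Ghr. With 1 library left out the calls ran between 0 and 8 in bleomycin and between 0 and 15 in nitrate, with 0 in both without control 2 and 15 in nitrate without nitrate 2. They were 2 in bleomycin without any one of the bleomycin libraries and 3 without control 3, and in nitrate 2 without nitrate 3 or control 1 and 4 without control 3.

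Outside the members, the RNA of 12 genes of fatty acid synthesis, modification and its control was tested. In bleomycin against control 4 fell and none rose, with a median of -1.18. They were Elovl5 (-1.75 ± 0.36, adjusted p = 0.0236) and Fasn, the fatty acid synthase (-1.98 ± 0.46, adjusted p = 0.0366), with Me1 and Acacb. Fasn had 56.8, 119 and 61.8 FPKM in bleomycin, against 158, 601 and 280.2 FPKM in control, with no overlap. None of the 12 was called without bleomycin 1, bleomycin 3, control 2 or control 3, and 2 were without nitrate 1. In nitrate against control none of the 12 was called, with a median of -0.55, and in nitrate against bleomycin none was called, with a median of 0.34.

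Of 12 other regulators of fat cell formation, 3 fell and 1 rose in bleomycin against control. Klf15, Ebf1 and Zfp423 fell, and Cebpb, the C/EBP factor that acts early and also in inflammation, rose (0.77 ± 0.16, adjusted p = 0.0281). In nitrate against control 7 fell and none rose, led by Cebpd (-1.33 ± 0.19, adjusted p = 0.0130) and Nr1h3, the liver X receptor gene (-1.22 ± 0.20, adjusted p = 0.0176). Ebf2, 1 of these 12 regulators, passed the filter only through the control libraries, so the filter favoured a fall for it. With 1 library left out the calls ran between 0 and 5 in bleomycin and between 0 and 10 in nitrate, with 0 in both without control 2. In bleomycin they were 0 also without bleomycin 3 or control 3, 1 without bleomycin 1, bleomycin 2 or control 1, and 2 without nitrate 1. In nitrate they were 1 without nitrate 3 or control 1, 2 without nitrate 1, 3 without bleomycin 3, 4 without control 3 and 10 without nitrate 2. Among preadipocyte markers Cd34, which endothelium makes as well, fell in nitrate (-1.12 ± 0.18, adjusted p = 0.0163) and in bleomycin (-1.28 ± 0.18, adjusted p = 0.00786) against control. The call of Cd34 in nitrate was lost without nitrate 3, control 1 or control 2. Cd24a rose in bleomycin (1.23 ± 0.19, adjusted p = 0.0105), and the other preadipocyte genes tested did not pass. In the brown and beige fat list Dio2, which activates thyroid hormone, was the one call, higher in nitrate (0.89 ± 0.23, adjusted p = 0.0480) and in bleomycin (1.51 ± 0.23, adjusted p = 0.00887) than in control. Its levels of 0.949 to 2.21 FPKM in nitrate, 2.31 to 4.08 FPKM in bleomycin and 0.307 to 0.517 FPKM in control did not overlap with control. Dio2 passed the filter only through the bleomycin libraries, where it is high, so the filter favoured that direction, and its call in nitrate was lost without any one of the control libraries, nitrate 1, nitrate 3, bleomycin 1 or bleomycin 3.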

How the data were processed

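RNA of skin was extracted with a column kit and made into libraries with a SMARTer mRNA kit, per the labels' protocols. The FPKM values of all libraries came in 1 table the authors deposited, on mm10 per the submitters' processing notes. The aligner, the counting tool and its strand setting are not given in the sources used here. Multiplied by gene length, 100% of a library's values fell within 0.01 of whole multiples of 1 step, and these multiples were taken as reads. The authors' effective library size was 0.916 to 1.09 times those reads, by an unstated scaling.

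Genes that reached 1 FPKM in 3 or more of the 9 libraries were tested with limma 3.58.1 in R 4.3.3 on log2(FPKM + 1), as 1 fit of 3 group means (eBayes with trend and robust, two-sided), with calls at a Benjamini-Hochberg p under 0.05. The members and the 11 other gene lists, of 164 genes, were chosen with earlier results of these data known. All 32 members may be named. Full statistics are given for called members, Adipoq, Lep, Retn, Cfd, Pparg, Cebpa and the largest change not called, and for up to 4 called genes of each other list. Coordinates of 31 of 32 members were those of GENCODE M21. Exons of 8 members overlap an exon of a gene on the other strand, over at most 24.9% of their bases (Adrb3), and their reads cannot be told apart without the strand setting. Promoters are from RefSeq GRCm38.p6. The test was tried on simulated data in which genes varied independently, so that trial does not cover shifts shared by the genes of a library. Other settings tried were an added 0.1 or 0.5 in place of 1, no filter or a filter at a mean of 5 FPKM, quantile or median-of-ratios scaling, a fit of the compared groups alone, a replicate block, weights per sample, voom on the reads, and leaving out single libraries or both control 1 and bleomycin 1. Python 3.11.15 with matplotlib 3.10.9 drew the figures.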

Additional observations from a re-analysis of the deposited data

How the results depend on the processing

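Over the 20 alternatives, the median log2 fold change of the members stayed between -1.15 and -0.74 in bleomycin against control, between -0.49 and -0.23 in nitrate against bleomycin (-0.23 without nitrate 3), and between -1.42 and -1.07 in nitrate against control. Leaving out 1 library gave the same ranges. The number of members called was less stable. Leaving out 1 library gave 1 to 10 in bleomycin against control and 1 to 21 in nitrate against control, and 0 in every alternative in nitrate against bleomycin. Without both control 1 and bleomycin 1 the members called were 1 in bleomycin against control and 0 in nitrate against control, and the genes called were 137 and 23. With no filter the members called were 1 and 3, and the genes called 676 and 294. A mean FPKM of at least 5 gave 4 members and 747 genes in bleomycin against control, in part because Aqp7, Adrb3 and Plin5 were then not tested. Sample weights gave 12 members and 1947 genes in bleomycin against control, and 2085 genes in nitrate against control. With only the groups compared, nitrate against control gave 2 members and 306 genes, and bleomycin against control 10 members and 1589 genes. Of all genes, 334 to 1539 were called in bleomycin against control, 0 to 37 in nitrate against bleomycin and 45 to 2882 in nitrate against control when 1 library was left out. Apart from the dropped tests, the cause was not tested.

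Signs turned for Lep in bleomycin against control without bleomycin 1 (0.16) and without control 2 (0.12; -0.57 to 0.16 over single libraries left out), Pparg in nitrate against bleomycin without nitrate 1 (-0.064) and without bleomycin 1, with or without control 1 (-0.11; -0.11 to 0.29), Cidea in nitrate against control without nitrate 2 (-0.088; -0.088 to 0.40), and Cebpa in nitrate against control without nitrate 3 (0.027) and without control 2 (0.020; -0.18 to 0.027). They also turned in some alternative for Adig, Plin5, Cd36, Fabp4 and Car3 in nitrate against bleomycin, and for G0s2, Mgll and Dgat1 in nitrate against control. No scaling moved the median of all genes by over 0.1. The labels number the libraries 1 to 3 in each group. In deviations from the group means, same-numbered libraries of different groups correlated between -0.391 and 0.517. Those with different numbers correlated between -0.568 and 0.577. Of 9 libraries, 5 correlated best with a library of their own number. These values do not settle whether the numbers mark a pairing, and the main fit used none. With the replicate block 7 members were called in bleomycin against control, 5 of them among the 7 above, 13 in nitrate against control and none in nitrate against bleomycin, where 10 genes were called.

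With 3 libraries in each group and no account of the animals, the tests see large changes that are even across libraries. Aqp7, Plin5, Adrb3, Pck1 and Lep rest on fewer than 100 reads in at least 1 library, so counting error adds to their spread.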
